A study of Mus musculus with 9 samples.

Results

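ATF4 and its amino acid stress genes were followed as a set of 10 genes, Atf4, Ddit3, Ddit4, Cebpb, Slc3a2, Slc7a5, Asns, Trib3, Sesn2 and Xbp1, chosen by name from 55487 gene IDs. Of these 10 genes, 9 had enough reads to be tested among 13374 genes, and Asns did not. Poly(A) RNA came from naive CD4+ T cells, helper T cells that have not met their antigen, taken from spleen; the mice were wild-type and of the strain C57BL6/J. There were 9 libraries in 3 groups of 3. In the anti-IL-1b group mice had received a neutralizing antibody to the inflammatory cytokine IL-1b on 10 consecutive days, and in the MCC950 group they had received MCC950, an inhibitor of the inflammasome sensor NLRP3, on 10 consecutive days. Mice of the third group were untreated, and neither a vehicle nor an isotype antibody is named in the labels. Since the labels do not tie each library to a mouse of its own, p-values here cover the spread among libraries only, and that spread may be technical.

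ATF4 is the transcription factor of the integrated stress response. Kinases that sense scarce amino acids, misfolded protein in the endoplasmic reticulum, viral RNA or lack of heme phosphorylate the translation factor eIF2, which slows protein synthesis in general but lets ribosomes reach the ATF4 reading frame. ATF4 then pairs with C/EBP proteins and switches on amino acid transporters, amino acid synthesis, brakes on mTORC1 and, under lasting stress, the factor CHOP. Resting T cells keep protein synthesis low and raise amino acid import when they are activated. Because ATF4 is controlled largely through translation, its mRNA level is not a measure of its protein.

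ATF4 dimers with C/EBP partners read a composite element, TGATGNAA, which was searched on both strands of RefSeq promoter windows (GRCm38.p6, 250 bases before to 50 after the start site) for the 9 of 10 genes with an entry. The promoters of Asns and Trib3 held it, and they are shown here because these are the promoters of the set in which the letters occur; the windows of the 7 other genes did not contain these letters. Each stretch runs from 100 bases before the start site through 30 bases from it, 5′ to 3′ on the minus strand, with the element in capitals, at chr6:7693180-7693309 for Asns and chr2:152344031-152344160 for Trib3.
Asns: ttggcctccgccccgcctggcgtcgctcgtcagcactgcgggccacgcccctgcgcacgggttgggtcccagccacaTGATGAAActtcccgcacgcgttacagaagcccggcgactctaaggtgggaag
Trib3: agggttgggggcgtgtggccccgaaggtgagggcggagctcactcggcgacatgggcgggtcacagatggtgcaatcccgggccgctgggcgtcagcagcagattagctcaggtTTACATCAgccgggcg
In Asns the element reads TGATGAAA and starts 23 bases before the start site. In Trib3 it lies 14 bases after the start site on the opposite strand, so that it reads TTACATCA here. These start sites are those of RefSeq, while the gene positions given below are from GENCODE and can begin at other bases. By the GENCODE positions the Asns element lies within the gene and the Trib3 element before it. The same letters occur in 3.97% of 32851 promoter windows, which is 1304 of them. No window of the 9 genes held the cAMP response element TGACGTCA (1.79% of all windows), the unfolded protein response element TGACGTGG (0.676%) or the endoplasmic reticulum stress response element, CCAAT followed after 9 bases by CCACG (0.119%).

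Each anti-IL-1b library held 14775375 to 16676626 expected counts, each MCC950 library 16769960 to 18497827 and each untreated library 17335367 to 21394797. Transcripts of the 11 naive CD4+ T cell markers summed to 7012 to 7075 TPM, 6507 to 6653 TPM and 6386 to 6504 TPM in these groups, and none was at 0 in any group. These sums did not overlap between groups. Of the 11 markers 3 were lower and 3 higher with the antibody (27.3% each), against 18.5% lower and 15.4% higher among all tested genes. With MCC950 5 were lower and 3 higher (45.5% and 27.3%), against 19.1% and 17.7% of all tested genes. Of 22 immediate early and handling stress genes, 21 were lower with the antibody and 21 with MCC950, and they summed to 5451 to 5611 TPM, 5639 to 5870 TPM and 19835 to 20387 TPM in anti-IL-1b, MCC950 and untreated libraries. Il1b, the gene of the cytokine, had 124, 70 and 104 counts in anti-IL-1b libraries, 38, 57 and 35 in MCC950 libraries and 0 in each untreated library, and Nlrp3 had 5, 31 and 6, then 5, 4 and 9, against 0 in each untreated library. Neither gene is deleted in these mice, so their counts do not check the labels.

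Every tested gene of the set was lower in antibody-treated than in untreated cells, and all but Ddit4 were lower with MCC950. With the antibody 9 of 9 passed the threshold in the lower direction and 0 in the higher one, against 18.5% lower and 15.4% higher among all tested genes. With MCC950 8 of 9 were lower and 0 higher, against 19.1% and 17.7% of all tested genes. The set was chosen with earlier results of these data known, so these shares describe it and do not test it. The median log2 fold change over the 9 genes was -0.89 with the antibody and -0.82 with MCC950, beside 0.003 and 0.011 over all tested genes. Unless another method, filter, scaling or choice of libraries is named, each adjusted p below comes from the quasi-likelihood test of edgeR. It is adjusted by Benjamini-Hochberg over all 13374 tested genes. Log2 fold changes are of counts unless TPM is named, and the threshold is an adjusted p of 0.05. Both comparisons use the same 3 untreated libraries, so they are not independent of each other. In bulk RNA, fewer cells of a type and less RNA per cell cannot be told apart. The immediate early and handling stress genes, of which 21 of 22 were lower in each comparison, moved in the same direction as the set, and their part in its lower levels was not tested.

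**Figure D1:**
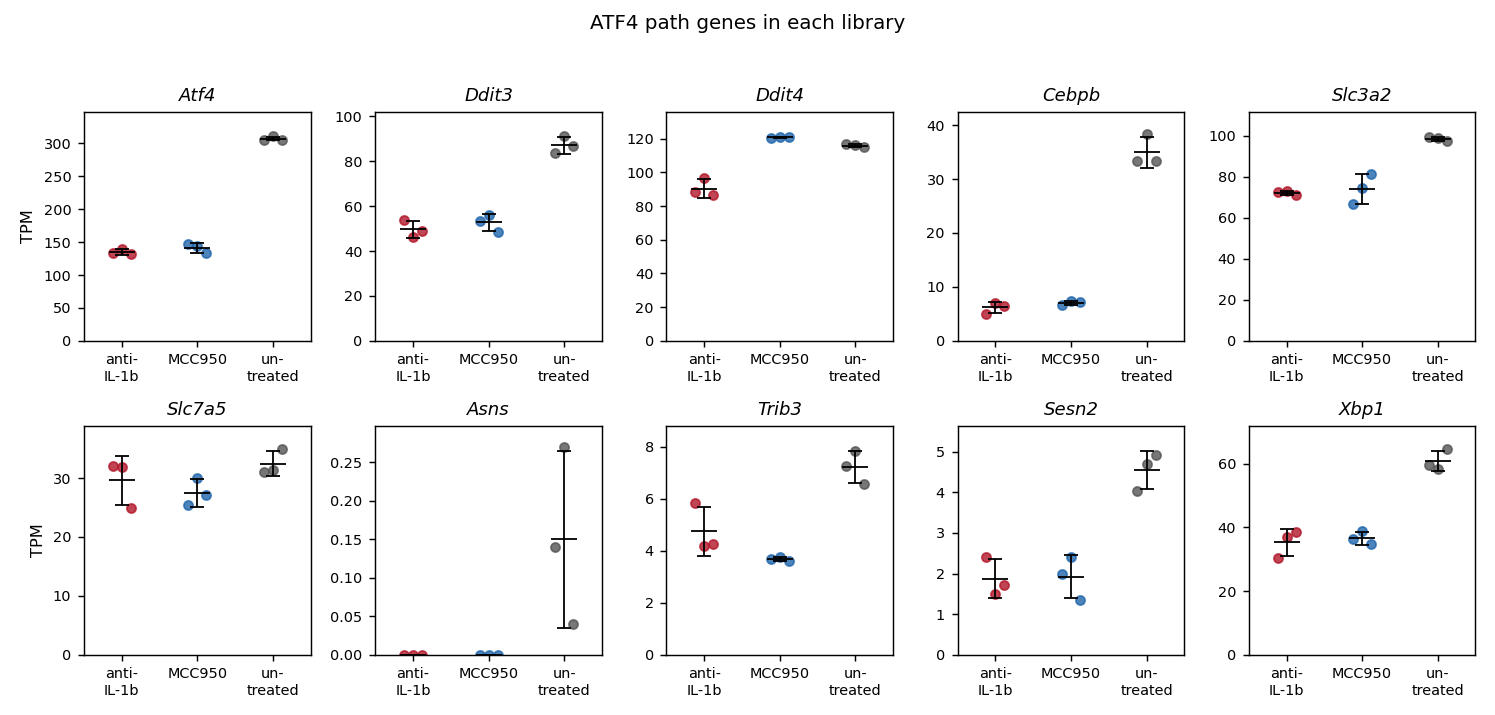
TPM of the 10 genes (vertical axes, each from 0) in the 3 libraries of the anti-IL-1b, MCC950 and untreated groups. Points are libraries and bars are mean and SD; Atf4 lay at 133 to 139, 133 to 147 and 306 to 311 TPM, and Ddit4 in MCC950 libraries lay above the untreated ones.

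Atf4 itself (chromosome 15, 80255184 to 80257541, plus strand) was the most abundant gene of the set on the TPM scale. It had 133, 139 and 133 TPM in anti-IL-1b libraries, 147, 144 and 133 TPM in MCC950 libraries and 306, 311 and 306 TPM in untreated libraries. All 6 libraries of the treated mice lay under the lowest untreated one by more than the range within any group. Counts of Atf4 were 2.5-fold lower with the antibody, or -1.32 ± 0.04 as a log2 fold change ± SE (adjusted p = 1.64e-27), and 2.28-fold lower with MCC950, at -1.19 ± 0.04 (adjusted p = 4.2e-26). Of the 13374 tested genes, 332 had a lower log2 fold change than Atf4 with the antibody and 398 with MCC950.

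The other transcription factors of the set were lower as well. Cebpb (chromosome 2, 167688915 to 167690418, plus strand) encodes C/EBP beta, a partner of ATF4, and had 5.06, 7.07 and 6.49 TPM with the antibody, 6.56, 7.31 and 7.27 TPM with MCC950 and 33.3, 38.3 and 33.3 TPM untreated. The treated groups overlapped each other and lay far below the untreated group, and no gene of the set differed more from it. Cebpb counts were 6.27-fold lower with the antibody (log2 fold change -2.65 ± 0.14, adjusted p = 9.14e-19) and 5.30-fold lower with MCC950 (-2.41 ± 0.14, adjusted p = 6.75e-18). Cebpb is also transcribed in myeloid cells. Neutrophil markers summed to 66.7 to 84.1 TPM with the antibody, 37.9 to 51.2 TPM with MCC950 and 0.68 to 1.61 TPM untreated. Of 8 tested monocyte, macrophage and dendritic cell markers 6 were higher and 1, Cd68, was lower with the antibody, and 6 were higher and 0 lower with MCC950. Of all tested genes 15.4% were higher and 18.5% lower with the antibody, and 17.7% and 19.1% with MCC950.

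Ddit3 (chromosome 10, 127290774 to 127296288, plus strand) encodes CHOP, a C/EBP family factor that promotes death under lasting stress. It stood at 53.8, 46.3 and 48.7 TPM in anti-IL-1b libraries, 53.2, 56.3 and 48.7 TPM in MCC950 libraries and 83.5, 91.0 and 86.9 TPM in untreated libraries. The treated groups overlapped and both lay wholly below the untreated one. Its log2 fold change was -0.96 ± 0.09 with the antibody (adjusted p = 2.12e-11) and -0.82 ± 0.09 with MCC950 (adjusted p = 5.73e-10). A second gene ID carries the same symbol and overlaps the first; it had 0 counts in all 9 libraries, while the one used here had 4812.

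Xbp1 (chromosome 11, 5520659 to 5525893, plus strand) encodes the transcription factor of the IRE1 arm of the unfolded protein response, and gene-level counts do not separate its spliced from its unspliced form. It had 30.4, 37.1 and 38.5 TPM with the antibody, 36.4, 38.8 and 34.7 TPM with MCC950 and 59.6, 58.4 and 64.6 TPM untreated. The groups of treated mice overlapped and did not reach the untreated level. Counts fell by 0.89 ± 0.08 on the log2 scale with the antibody (adjusted p = 3.89e-12) and by 0.70 ± 0.08 with MCC950 (adjusted p = 9.34e-10). Xbp1 is also abundant in plasma cells. The other 6 plasma cell markers summed to 6.72 to 8.80 TPM, 6.27 to 8.13 TPM and 22.4 to 23.3 TPM in anti-IL-1b, MCC950 and untreated libraries, of which Irf4, a factor that T cells also induce, gave 2.01, 1.78 and 18.7 TPM on average. Prdm1 averaged 2.86, 2.37 and 3.75 TPM. The defining plasma cell transcripts were scarce and not alike. Over the anti-IL-1b, MCC950 and untreated groups Sdc1 had 2, 7 and 24 counts and Jchain had 95, 89 and 7. Mzb1 had 8, 14.6 and 4.83, and Tnfrsf17 had 0 in each group.

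Among the brakes of the set, Ddit4 differed between the agents. Ddit4 (chromosome 10, 59949669 to 59951834, minus strand) encodes REDD1, an inhibitor of mTORC1 that glucocorticoids and lack of oxygen also induce. It had 88.2, 96.7 and 86.4 TPM in anti-IL-1b libraries, 121, 121 and 121 TPM in MCC950 libraries and 117, 116 and 115 TPM in untreated libraries. Antibody libraries lay below both other groups, and MCC950 libraries lay above the untreated ones in TPM but below them in CPM (129 ± 0.360 against 132 ± 0.877, SD, n = 3 each). In counts Ddit4 was 1.43-fold lower with the antibody than untreated (log2 fold change -0.52 ± 0.05, adjusted p = 9.22e-12). With MCC950 its log2 fold change was -0.04 ± 0.05 (adjusted p = 0.587), with a 95% interval from -0.13 to 0.06, and it lay between -0.04 and 0.08 over the alternatives, so its sign depended on the scale while no call was made.

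Sesn2 (chromosome 4, 132492032 to 132510501, minus strand) encodes a leucine sensor that restrains mTORC1 through GATOR2. It was scarce, with 2.41, 1.49 and 1.72 TPM with the antibody, 2.0, 2.4 and 1.35 TPM with MCC950 and 4.03, 4.71 and 4.93 TPM untreated. Its treated libraries spread more, relative to their mean, than those of Atf4, and stayed below the untreated ones. Sesn2 counts were 2.71-fold lower with the antibody (log2 fold change -1.44 ± 0.21, adjusted p = 5.72e-07) and 2.54-fold lower with MCC950 (-1.34 ± 0.21, adjusted p = 1.39e-06), resting on 197, 237 and 620 counts over the anti-IL-1b, MCC950 and untreated groups.

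Trib3 (chromosome 2, 152337422 to 152344032, minus strand) encodes a pseudokinase that binds ATF4 and CHOP and dampens their activity, and its promoter holds the composite element printed above. It had 5.84, 4.17 and 4.25 TPM in anti-IL-1b libraries, 3.70, 3.75 and 3.62 TPM in MCC950 libraries and 7.28, 7.83 and 6.57 TPM in untreated libraries. The first antibody library came nearest to the untreated range without reaching it. The log2 fold change was -0.83 ± 0.19 with the antibody (adjusted p = 0.00081) and -1.13 ± 0.20 with MCC950 (adjusted p = 1.19e-05). Leaving out the first antibody library moved the antibody value to -1.06, and the call held.

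Slc3a2 and Slc7a5 encode the heavy and the light chain of one transporter, CD98 with LAT1, which brings leucine and other large neutral amino acids into T cells. The heavy chain gene, Slc3a2 (chromosome 19, 8706882 to 8723369, minus strand), had 72.3, 72.8 and 71.1 TPM with the antibody, 66.5, 74.3 and 81.1 TPM with MCC950 and 99.2, 98.9 and 97.4 TPM untreated. MCC950 libraries spread widest, and all treated libraries lay below the untreated ones. Slc3a2 counts were 1.55-fold lower with the antibody (log2 fold change -0.63 ± 0.06, adjusted p = 6.31e-12) and 1.41-fold lower with MCC950 (-0.49 ± 0.06, adjusted p = 2.21e-09).

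Apart from Ddit4 with MCC950, the light chain gene, Slc7a5 (chromosome 8, 121881150 to 121907694, minus strand), differed least. It had 32.1, 31.8 and 24.9 TPM in anti-IL-1b libraries, 25.3, 29.99 and 27.1 TPM in MCC950 libraries and 31.1, 31.3 and 35.0 TPM in untreated libraries, so that in TPM the antibody range overlapped the untreated one. In counts the log2 fold change was -0.18 ± 0.07 with the antibody (adjusted p = 0.0328) and -0.17 ± 0.07 with MCC950 (adjusted p = 0.0392). Both calls ended under upper-quartile scaling (adjusted p = 0.126 and 0.106), library totals (0.547 and 0.508), DESeq2 (0.0541 and 0.0513) and log2(TPM + 1) (0.404 and 0.159). The antibody call also ended without untreated library 1 or 2 (adjusted p = 0.096 and 0.0785) or antibody library 2 or 3 (0.12 and 0.134). The MCC950 call ended without untreated library 1 or 2 (0.111 and 0.0897), MCC950 library 1 or 2 (0.21 and 0.0592), or with no filter on low counts (0.0574). The abundance-weighted transcript length of Slc7a5 ran from 2679 to 3315 bases with the antibody, 2877 to 3217 bases with MCC950 and 2492 to 2950 bases untreated, a length by which TPM is divided.

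Asns (chromosome 6, 7675169 to 7693254, minus strand) encodes asparagine synthetase, a standard readout of ATF4 whose promoter carries the element printed above, and it was all but missing from these cells. It had 0 counts in all 3 antibody libraries and all 3 MCC950 libraries, and 3, 3 and 1 counts in the untreated ones. A count of 0 over a group allows up to 3 counts, which is 0.0626 CPM over the anti-IL-1b group and 0.0553 CPM over the MCC950 group, counting error only, while the untreated libraries averaged 0.128 CPM. No difference can be called at this depth.

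Set side by side per length, the levels of the set ran in nearly the same order in the 3 groups. In each group Atf4 stood first, then Ddit4, Slc3a2, Ddit3 and Xbp1, and Sesn2 and Asns came last. Mean TPM ran from 135 for Atf4 to 1.87 for Sesn2 with the antibody, from 141 to 1.92 with MCC950 and from 307 to 4.56 in untreated cells. Cebpb changed place: with a mean of 6.21 TPM in the antibody group and 7.05 TPM in the MCC950 group it stood below Slc7a5, whereas in untreated cells its mean of 35.0 TPM was next to the 32.5 TPM of Slc7a5 and their ranges overlapped. Neighbours whose ranges also overlapped were Xbp1 and Slc7a5, and Cebpb and Trib3, both in the antibody group.

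**Figure D2:**
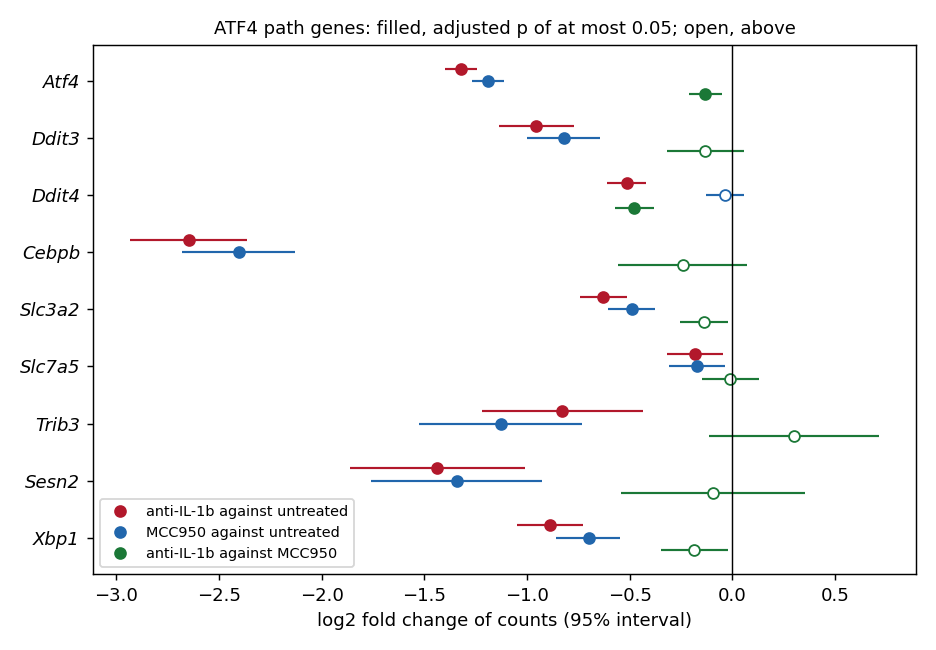
Log2 fold change of counts of the 9 tested genes (horizontal axis, with 95% intervals) for each agent against untreated (red, anti-IL-1b; blue, MCC950) and for anti-IL-1b against MCC950 (green). Filled points passed an adjusted p of 0.05; Cebpb lay farthest from 0, at -2.65 and -2.41 against untreated, and between the agents Ddit4 and Atf4 alone are filled.

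Between the agents the set differed little apart from Ddit4. With the antibody 2 of 9 genes were lower than with MCC950, Ddit4 and Atf4, and 0 were higher, against 7.11% lower and 6.13% higher among all tested genes. Ddit4 had a log2 fold change of -0.48 ± 0.05 (adjusted p = 5.48e-10), and every antibody library lay below every MCC950 library. For Atf4 the value was -0.13 ± 0.04 (adjusted p = 0.0195), but the groups overlapped in counts and in TPM. That call ended under limma-voom (adjusted p = 0.0541), on log2(TPM + 1) (0.458), without antibody library 1 or 3 (0.0854 and 0.0529) and without MCC950 library 1 or 2 (0.167 and 0.0629).

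For the other 7 genes no difference between the agents was called, which does not show that the agents act alike. The 95% interval of the log2 fold change of anti-IL-1b against MCC950 was from -0.56 to 0.07 for Cebpb, from -0.32 to 0.05 for Ddit3 and from -0.15 to 0.13 for Slc7a5. It was from -0.11 to 0.71 for Trib3 and from -0.54 to 0.35 for Sesn2, the 2 genes with the fewest reads. Xbp1 and Slc3a2 were at -0.19 (adjusted p = 0.13) and -0.14 (adjusted p = 0.113), and Slc3a2 passed when MCC950 library 1 was left out (-0.19, adjusted p = 0.0477).

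Genes whose pattern over the 9 libraries was most like that of Atf4 were sought among 9150 genes whose mean log2 CPM reached 2. Genes of the set, predicted genes and genes without a symbol were left out of these. Likeness was measured by the root mean square distance between centred log2 CPM values. The 5 nearest were Hspd1, a mitochondrial chaperonin gene (0.0589), Morf4l2, a chromatin factor gene (0.0593), Nfkbia, which encodes the NF-kB inhibitor IkB alpha (0.0634), Gprasp2, which encodes a receptor-sorting protein (0.0694), and Hspa5, which encodes the endoplasmic reticulum chaperone BiP (0.0721). Their log2 fold changes were -1.39, -1.34, -1.33, -1.30 and -1.25 with the antibody and -1.16, -1.13, -1.28, -1.19 and -1.13 with MCC950. Genes of the set lay farther from Atf4, which was nearly fixed beforehand, since the 5 were picked as the nearest of 9150. Ddit3 was nearest among the genes of the set at a distance of 0.193. Xbp1 followed at 0.230, Sesn2 at 0.270 and Trib3 at 0.294, while Cebpb, which fell more steeply, was farthest at 0.604. The 9 libraries share 3 untreated ones and differ mainly between groups, so the distances describe these samples only. Hspd1 has near-identical copies in the genome, which makes its counts uncertain.

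The rest of the pathway was read from lists of its kinases, effectors, transporters, enzymes and sensors. Of the other stress factors and effectors of the ATF4 path, 26 genes of which 19 were tested, 13 were lower and 0 higher with the antibody, and 13 were lower and 1 higher with MCC950, with medians of -0.80 and -0.71. The 13 lower genes are 68.4% of those tested in either comparison. Like the set, the lists were chosen with earlier results of these data known. Some genes stand on several lists, for example Ppp1r15a on this list and on that of the eIF2 kinases and phosphatases. The handling stress list also overlaps this one and the C/EBP and ATF list, so the lists are not independent of each other. For this and the lists below, the shares over all tested genes are 18.5% lower and 15.4% higher with the antibody and 19.1% lower and 17.7% higher with MCC950. These shares hold under TMM scaling. Scaling to library totals made more of all tested genes higher and fewer lower, with all-gene medians of 0.13 and 0.125. List counts under library totals are therefore not to be set against the TMM shares. Counts over all genes under that scaling are given in the last section. Ppp1r15a encodes GADD34, the phosphatase subunit that ends eIF2 phosphorylation, and stood at 134, 132 and 127 CPM in anti-IL-1b libraries, 102, 105 and 98.5 CPM with MCC950 and 910, 977 and 977 CPM untreated. Its 3 groups did not overlap, and its log2 fold change was -2.87 ± 0.04 with the antibody (adjusted p = 1.75e-40) and -3.23 ± 0.04 with MCC950 (adjusted p = 5.38e-42). Trib1, a relative of Trib3 that marks C/EBP proteins for destruction, had 3.78, 5.54 and 5.84 CPM, then 1.52, 2.27 and 2.3 CPM, against 31.4, 27.1 and 28.9 CPM untreated, at -2.53 ± 0.16 and -3.83 ± 0.18. Tnfrsf10b, a death receptor gene that CHOP is known to induce in human cells, was at -2.08 ± 0.16 and -1.78 ± 0.15. The exception among these genes was Cebpg, a C/EBP partner gene without an activation domain, at 0.12 ± 0.07 with the antibody (adjusted p = 0.212) and 0.20 ± 0.07 with MCC950 (adjusted p = 0.0199).

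**Figure D3:**
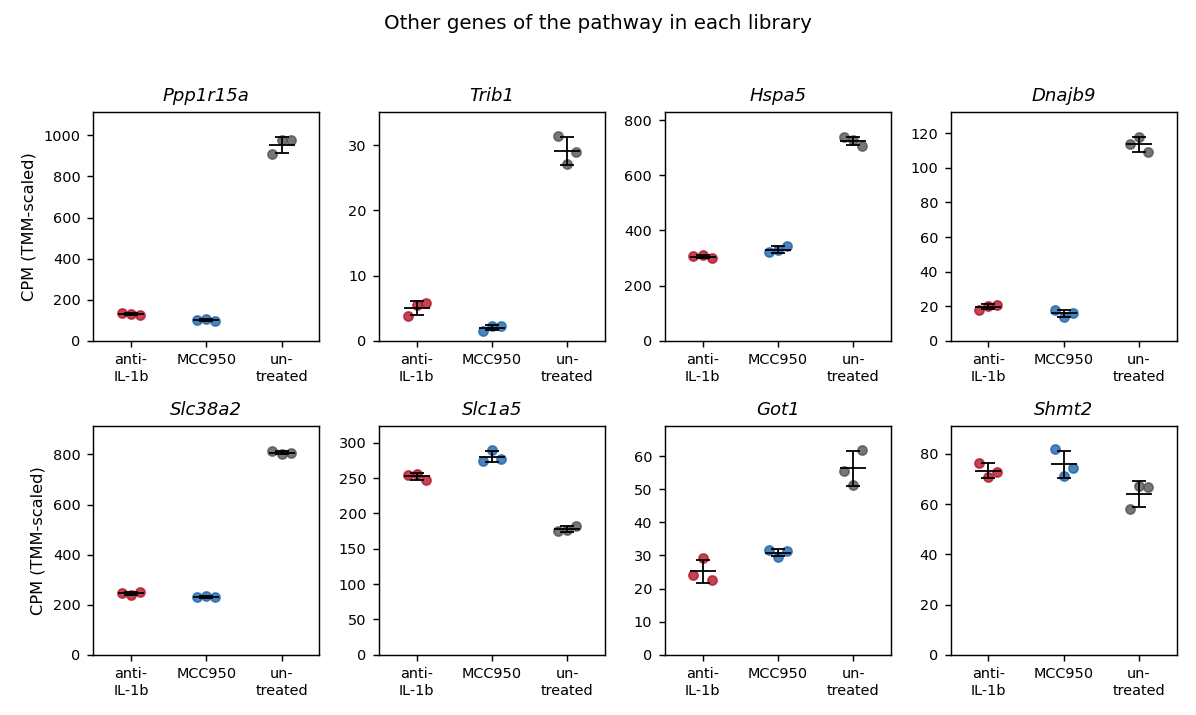
CPM after TMM scaling (vertical axes, each from 0) of 8 further pathway genes in the 3 libraries of the anti-IL-1b, MCC950 and untreated groups, with mean and SD. Ppp1r15a, Trib1, Hspa5, Dnajb9, Slc38a2 and Got1 lay lower in both treated groups, with 127 to 134, 98.5 to 105 and 910 to 977 CPM for Ppp1r15a, and Slc1a5 and Shmt2 lay higher.

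Several textbook readouts of ATF4 were, like Asns, at or near 0 counts, and they are named for that place in the pathway after their values were seen. Chac1, which encodes a glutathione-degrading enzyme, had 3, 0 and 1 counts over the anti-IL-1b, MCC950 and untreated groups. Nupr1 had 7, 3 and 0 and Gdf15 had 0, 1 and 0, while Cth, Vldlr, Fgf21 and Ddit4l had 0 in every group. None was tested, and a sum of 0 allows up to 3 counts over a group.

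Among the eIF2 kinases, phosphatases and exchange factor, 18 tested genes, 9 were lower and 2 higher with the antibody (50% and 11.1%) and 8 lower and 2 higher with MCC950 (44.4% and 11.1%), against 18.5% and 15.4%, and 19.1% and 17.7%, of all tested genes. The gene of the kinase PERK, Eif2ak3, averaged 39.8 ± 3.26 CPM, 39.9 ± 1.22 CPM and 52.8 ± 1.63 CPM (SD, n = 3 each), at a log2 fold change of -0.41 (adjusted p = 2.07e-05) with the antibody and -0.41 (adjusted p = 1.9e-05) with MCC950. Eif2ak2, the gene of the viral RNA sensor PKR, went the other way at 0.44 ± 0.12 and 0.52 ± 0.12 (adjusted p = 0.00269 and 0.000343). On log2(TPM + 1) these calls of Eif2ak3 and Eif2ak2 ended, with adjusted p of 0.204 and 0.299 for the antibody and 0.063 and 0.139 for MCC950. Eif2ak4, which encodes GCN2, the kinase that senses uncharged tRNA, passed in neither comparison, at -0.10 ± 0.11 and -0.11 ± 0.11 (adjusted p = 0.555 and 0.477); it was named after its value was seen. Under library totals the split of this list became 4 lower and 4 higher with the antibody, and 6 and 5 with MCC950, with a median of 0.003.

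Among amino acid transporters other than CD98 and LAT1, 17 tested, 2 were lower and 5 higher with the antibody, and 2 lower and 5 higher with MCC950, at medians of 0.08 and 0.07. In both comparisons that is 11.8% lower and 29.4% higher, against 18.5% and 15.4% of all tested genes with the antibody and 19.1% and 17.7% with MCC950. Under library totals, where all tested genes shifted higher too, these became 1 lower and 8 higher, and 2 lower and 8 higher. Slc38a2, which encodes the glutamine carrier SNAT2 and is induced when amino acids run low, had 247, 238 and 250.6 CPM in anti-IL-1b libraries, 231, 236 and 229 CPM with MCC950 and 815, 800.3 and 807 CPM untreated. It was far below the untreated level in all 6 treated libraries, at -1.72 ± 0.03 (adjusted p = 5.39e-35) and -1.80 ± 0.03 (adjusted p = 1.16e-35). Slc1a5, which encodes the glutamine carrier ASCT2, was higher in all 6, with 255, 255 and 247 CPM, then 275, 290.0 and 277 CPM, against 175, 177 and 182 CPM untreated. Its log2 fold change was 0.50 ± 0.04 with the antibody and 0.66 ± 0.04 with MCC950 (adjusted p = 7.1e-15 and 1.49e-18). Slc43a2, the gene of the neutral amino acid carrier LAT4, was higher at 0.49 ± 0.06 and 0.44 ± 0.06.

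In amino acid and one-carbon synthesis, 21 tested genes, 4 were lower and 4 higher with the antibody and 3 lower and 6 higher with MCC950, at medians of -0.01 and 0.01. The shares lower and higher were 19.0% and 19.0% with the antibody, near the 18.5% and 15.4% of all tested genes, and 14.3% and 28.6% with MCC950, against 19.1% and 17.7%. Under library totals, where all tested genes shifted higher too, these became 2 lower and 6 higher, and 2 lower and 8 higher. Got1, the cytosolic aspartate aminotransferase gene, averaged 25.3 ± 3.43 CPM and 30.8 ± 1.01 CPM against 56.3 ± 5.35 CPM untreated, at -1.16 ± 0.09 and -0.87 ± 0.09 (adjusted p = 4.86e-14 and 5.36e-11). Glul, the glutamine synthetase gene, was lower at -0.50 ± 0.05 and -0.52 ± 0.05. Serine pathway genes went the other way or did not pass: Psat1 was at 0.20 ± 0.10 (adjusted p = 0.12) and 0.34 ± 0.10 (adjusted p = 0.00579) and Shmt2, the mitochondrial serine hydroxymethyltransferase gene, at 0.19 and 0.24. Of the 20 cytosolic aminoacyl-tRNA synthetases, 2 were lower and 1 higher with the antibody (10% and 5% of the list) and 1 lower and 6 higher with MCC950 (5% and 30% of the list), at medians of 0.02 and 0.12. Under library totals these became 0 lower and 10 higher, and 0 lower and 12 higher, so the counts rested on the scaling.

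Genes of amino acid sensing by mTORC1, 35 tested, had 1 lower and 6 higher with the antibody and 3 lower and 10 higher with MCC950, at medians of 0.02 and 0.08. With the antibody 2.86% were lower and 17.1% higher, the second share near the 15.4% of all tested genes, and with MCC950 8.57% were lower and 28.6% higher, against 19.1% and 17.7%. Under library totals, where all tested genes shifted higher too, these became 0 lower and 15 higher, and 0 lower and 17 higher. Among those that passed, Lars2 differed most, at 0.55 ± 0.04 and 0.93 ± 0.04, but Lars2 encodes the mitochondrial leucyl-tRNA synthetase and not the cytosolic enzyme that senses leucine. Sesn3, a relative of Sesn2, averaged 389 ± 19.3 CPM, 377 ± 3.39 CPM and 402 ± 1.57 CPM, at -0.05 ± 0.03 (adjusted p = 0.284) and -0.09 ± 0.03 (adjusted p = 0.0265), and turned positive under library totals (0.08 and 0.02).

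In the unfolded protein response of the endoplasmic reticulum, 33 tested genes, 8 were lower and 3 higher with the antibody and 8 lower and 9 higher with MCC950, at medians of -0.03 and 0.06. The shares were 24.2% lower and 9.09% higher with the antibody, against 18.5% and 15.4% of all tested genes, and 24.2% and 27.3% with MCC950, against 19.1% and 17.7%. Under library totals, where all tested genes shifted higher too, these became 5 lower and 11 higher, and 4 lower and 18 higher. Their medians were then 0.10 and 0.17. Hspa5, the BiP gene, had 307, 310 and 300 CPM in anti-IL-1b libraries, 321, 328 and 344 CPM with MCC950 and 737, 728 and 707 CPM untreated, with all treated libraries under the untreated range. Its log2 fold change was -1.25 ± 0.03 and -1.13 ± 0.03 (adjusted p = 7.97e-30 and 1.83e-28). Dnajb9, which encodes the co-chaperone ERdj4, was at -2.54 ± 0.08 and -2.83 ± 0.08 (adjusted p = 1.94e-26 and 6.44e-28). Selenok, an endoplasmic reticulum selenoprotein gene, was at -1.11 ± 0.07 and -0.97 ± 0.07. In contrast Derl2, which encodes a protein of misfolded protein export, was higher at 0.41 ± 0.08 and 0.43 ± 0.08. Ern1, the gene of the XBP1-splicing enzyme IRE1, was at 0.08 ± 0.13 with the antibody (adjusted p = 0.674) and 0.33 ± 0.13 with MCC950 (adjusted p = 0.0378).

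**Figure D4:**
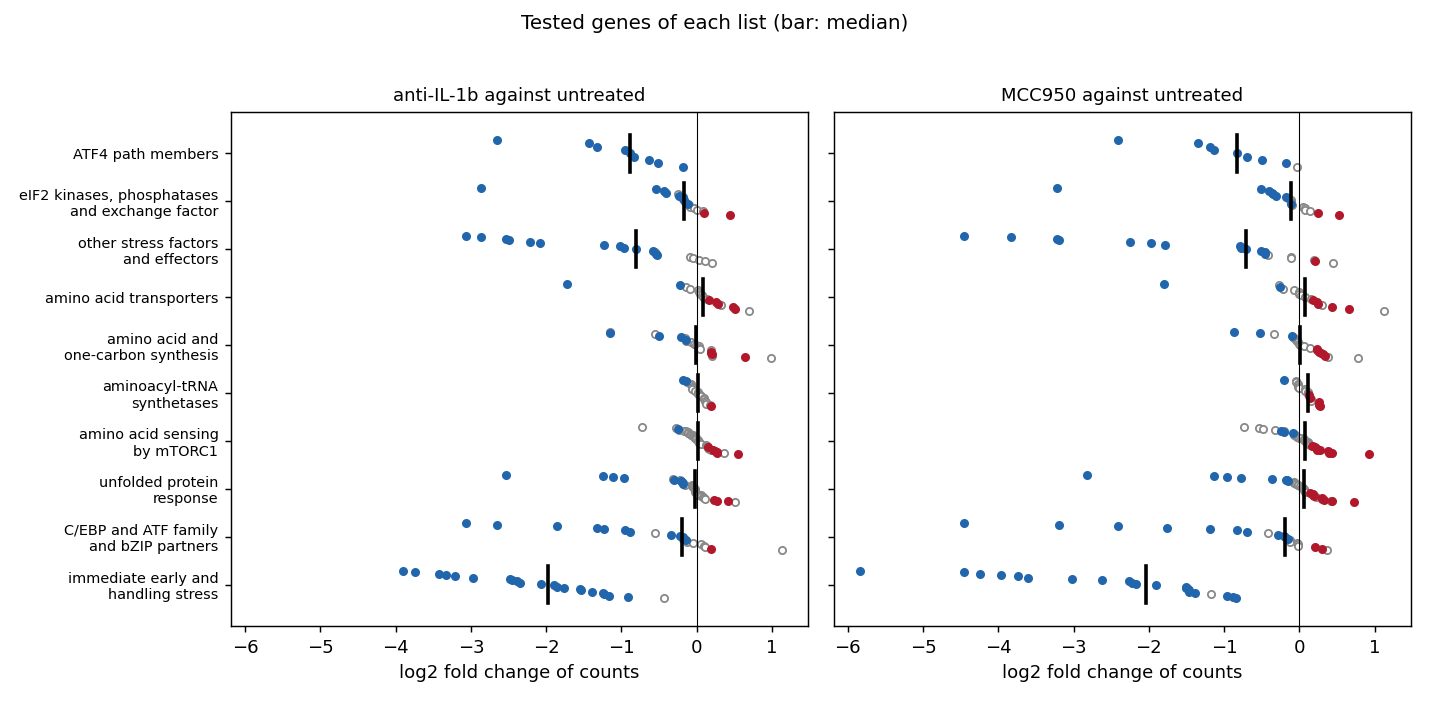
Log2 fold change of counts (horizontal axis) of every tested gene of the set, of 8 pathway lists and of the immediate early and handling stress list, for anti-IL-1b against untreated (left) and MCC950 against untreated (right). Blue points were lower and red points higher at an adjusted p of 0.05, open points did not pass, and bars are medians, which lay at -0.89 and -0.82 for the set, at -0.80 and -0.71 for the other stress factors and effectors and at -1.98 and -2.04 for immediate early and handling stress genes.

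In the wider C/EBP and ATF family and bZIP partners, a list of 20 tested genes that includes Atf4, Ddit3, Cebpb and Xbp1, 12 were lower and 1 higher with the antibody and 11 lower and 2 higher with MCC950, at medians of -0.20 and -0.19. The lower genes were 60% with the antibody and 55% with MCC950, against 18.5% and 19.1% of all tested genes, and under library totals 8 were lower and 3 higher, and 8 lower and 2 higher. Crem, a cAMP-responsive factor gene, averaged 6.36 ± 0.58 CPM and 6.85 ± 0.63 CPM against 23.1 ± 1.59 CPM untreated, at -1.86 ± 0.14 and -1.76 ± 0.14. Atf7, a relative of Atf2, was higher with the antibody at 0.19 ± 0.05 (adjusted p = 0.00111) and did not pass with MCC950 at -0.03 ± 0.05 (adjusted p = 0.621).

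Markers of other cells also differed between the groups, and their part in the values of the set was not tested. All 12 B cell markers were higher with either agent, at 137 to 150.6 TPM, 143 to 176 TPM and 27.3 to 36.7 TPM in sum for anti-IL-1b, MCC950 and untreated libraries. Of the neutrophil markers 9 of 9 tested were higher with the antibody and 8 of 9 with MCC950, and 8 of the 13 listed, among them S100a8, Ltf and Camp, were at 0 in all untreated libraries. With so few untreated reads, these markers could enter the tests almost only through treated libraries. Their direction was thus nearly fixed beforehand, and the counts only describe it. Monocyte, macrophage and dendritic cell markers summed to 21.97 to 31.6 TPM, 21.6 to 25.4 TPM and 7.22 to 10.9 TPM, cytotoxic and NK cell markers to 99.1 to 111 TPM, 93.7 to 102 TPM and 56.9 to 62.8 TPM, and red cell markers to 17.7 to 19.1 TPM, 21.6 to 35.1 TPM and 0.64 to 1.49 TPM. Activated and regulatory T cell markers went the other way in sum, at 111 to 118 TPM, 100 to 106 TPM and 441 to 462 TPM, although 3 of 10 were lower and 3 higher with the antibody and 4 lower and 4 higher with MCC950. Of the 4 tested plasma cell markers, Xbp1 included, 2 were lower and 1 higher with either agent. For all these marker lists, the shares over all tested genes are 18.5% lower and 15.4% higher with the antibody. With MCC950 they are 19.1% and 17.7%.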

How the data were processed

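Poly(A) RNA of 9 libraries was analysed, grouped as anti-IL-1b, MCC950 and untreated (3 each) by the labels alone; libraries were made with the NEBNext Ultra II Directional kit, per the labels' protocols. The submitters' processing notes name STAR, RSEM and mm10. The deposited expected counts, named so per the file headers, are RSEM's unnormalized estimates, which divide a multi-mapping read among its genes. TPM, a deposited unit per the file headers, sets transcripts relative to length and library. FPKM, deposited too, was summed per library and not used further. Use of strand in counting is not stated by labels or headers; values of genes with antisense partners or near-identical copies are uncertain.

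IDs were matched to GENCODE M21 on GRCm38, which is the mm10 build; 99.5% had a symbol. Rounded expected counts entered a robust quasi-likelihood fit in edgeR 4.0.16 (R 4.3.3) after TMM scaling and filterByExpr, which left 13374 genes; all comparisons come from one model of 3 group means on 9 libraries. Tests are two-sided, with Benjamini-Hochberg adjustment over all tested genes and a threshold of 0.05. An SE is the log2 fold change divided by the root of its F statistic, and 95% intervals use edgeR's degrees of freedom. The common biological coefficient of variation was 0.0707. The test was also run on simulated counts. CPM values are TMM-scaled. Tables and figures were made with pandas and matplotlib.

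The genes of the set and all lists were chosen with earlier results of these data known. Named genes are the 10 of the set and, from each pathway list and for each agent against untreated, up to 3 largest rises and 3 largest falls that passed, had groups without overlap and a mean log2 CPM of 2 or more; 2 genes that met this rule are not reported here, and the text gives some of the 48 others. Lists were described by counts and medians, not tested as sets. The deviations of same-numbered replicates correlated only weakly (-0.00967 to 0.0625, against -0.0573 to 0.0252 for different numbers). The numbers were therefore not taken to pair the libraries. Alternatives were scaling by RLE, by upper quartiles or by library totals, other filters, 6 libraries only, no robust option, the replicate block, DESeq2 1.42.0, limma-voom and limma-trend (limma 3.58.1) on log2(TPM + 1) and log2(TPM + 0.1), a threshold of 0.10, and leaving out each library.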

Additional observations from a re-analysis of the deposited data

How the results depend on the processing

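Over 22 alternatives, none of the 27 comparisons of the 9 tested genes of the set changed sign where it was called. Outside Slc7a5 against untreated, Atf4 between the agents and Slc3a2 between the agents, each kept its side of the threshold. The set's counts against untreated stayed at 8 or 9 of 9 with the antibody and 7 or 8 of 9 with MCC950. Between the agents the count was 1, not 2, under limma-voom, log2(TPM + 1) and log2(TPM + 0.1), and 1 to 2 when single libraries were left out. The replicate numbers were not taken to pair the libraries, but 8 of 9 libraries correlated best with their own number. Whether the numbers mark a pairing was not settled. With the number as a block 9, 8 and 2 genes of the set passed. Of all genes 4483, 4855 and 1704 passed in the 3 comparisons (4545, 4921 and 1771 without the block).

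Genes past the threshold numbered 3278 for MCC950 against untreated on log2(TPM + 1), and 576 and 566 between the agents on log2(TPM + 1) and log2(TPM + 0.1); the cause was not tested. Scaling to library totals shifted the median over all genes by 0.127 and 0.113 against untreated and gave 3929 higher and 1344 lower genes with the antibody (2066 and 2479 under TMM), and 4009 and 1587 with MCC950 (2369 and 2552 under TMM). Upper-quartile scaling gave 2687 and 1941 with the antibody, and log2(TPM + 1) gave 2635 and 862, 2176 and 1102, and 371 and 205 in the 3 comparisons. Leaving out single libraries gave 3961 to 4472, 4196 to 4991 and 1249 to 1800 genes.

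Of 144 comparisons of the 48 other named genes, 12 alternative values changed sign where the difference was called under TMM or under the alternative; 57 more changed sign where it was called under neither and are not listed. Under library totals Sesn3 was at 0.080 with the antibody and 0.023 with MCC950. On log2(TPM + 1) and log2(TPM + 0.1) with the antibody Nars was at 0.083 and 0.084 and Vars at 0.175 and 0.177. With MCC950 Sesn3 was at 0.023 and 0.023 and Vars at 0.223 and 0.225, and between the agents Nars was at 0.053 and 0.054. The cause was not tested. Depth limits Asns, Trib3, Sesn2 and the genes at or near 0 most.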
